A study of Mus with 4 samples.

Results

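Transfer RNA (tRNA) genes encode the adaptor molecules that carry amino acids to the ribosome. They are transcribed by RNA polymerase III from a promoter inside the gene, made of short A box and B box elements. The factor TFIIIC recognizes these elements and recruits TFIIIB, which places the polymerase upstream of the gene. Many tRNAs are encoded by several nearly identical gene copies, and many of these genes lie in clusters. A read that falls inside such a copy can therefore be hard to assign to a single gene.

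TBX3, a T-box transcription factor, was mapped in primary mouse hepatocytes by chromatin immunoprecipitation followed by sequencing (ChIP-Seq). The TBX3 group held 2 libraries precipitated by anti-HA antibody, and the Input group held 2 libraries of sonicated chromatin without immunoprecipitation. Cells of both groups alike carried pT2-SVNeo-EF1-eGFP-P2A-Tbx3-HA, a Sleeping Beauty transposon in which the EF1 promoter drives GFP together with HA-tagged TBX3. The hepatocytes were obtained by collagenase perfusion, expanded in culture and selected with G418, so the values describe TBX3 expressed above its native level in cultured cells. Age, sex and strain of the donor animals were not given in the sources used here, an IgG control library was not analysed here, and no expression values were at hand to check the cell type by its markers.

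The tRNA genes were all genes of biotype tRNA on the 19 autosomes and X in the RefSeq annotation of GRCm38.p6, the build that the labels call mm10. This rule took 408 of the 49997 annotated genes. The coordinates of 5 of them, Trnat-ugu, Trnap-ugg, Trnav-aac, Trnal-aag and Trnav-cac, fell in the opening 3095505 bases of chromosome 11, where the track is a single constant stretch, so these genes were left without values. The other 403 genes were widened by 200 bp on both sides, because a short gene shares its DNA fragments with the DNA beside it, and merged where they overlapped. This gave 364 loci, of which 334 held 1 gene and 30 held several, up to 4 genes. Locus length ran from 470 to 1647 bp with a median of 472 bp. The 403 genes represented 48 anticodons and all 20 amino acids, from 57 cysteine genes to 7 phenylalanine genes. Their names start with n-T and go on with the amino acid in 1 letter, the anticodon and a number, so n-TEctc5 is a glutamate gene with the anticodon CTC.

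The data were a single track with 1 value per base, the −log10 of the p-value for the ChIP reads over that base against the level expected from Input, called the score here. It gives no value per library, so scores are printed without a replicate error, and the depth of each library is unknown. The ChIP pileup, which is the number of extended reads over a base, and the expected level were inferred here from the score. The expected level was never lower than 2.43 reads, its genome-wide value. At that value a pileup of 4 reads gives a score of 0.999, a pileup of 5 gives 1.42, a pileup of 8 gives 3.02 and a pileup of 11 gives 5.01, so many genes share exactly the same score. After Benjamini-Hochberg adjustment of the Poisson p over all bases, an adjusted p of 0.05 corresponded to a score of 5.46.

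None of the 364 tRNA loci reached an adjusted p of 0.05 for TBX3, beside 0.11% of windows of the same length. At so low a share, a count of 0 does not set tRNA loci apart from windows. The highest score in a locus had a median of 0.999 and ran from 0.0398 to 5.38, with quartiles of 0.641 and 1.90. For reference, the promoter of E2f7, a repressor of the E2F family that controls the cell cycle, reached 22.8 in the same track, with an adjusted p of 2.44e-17. That value is the highest within 1 kb of either gene end, a wider stretch than a tRNA locus. Each locus was set beside all windows of its own length laid end to end along its own chromosome. The median of the windows was also 0.999. The highest score lay above the window median at 184 loci, below it at 128 and equal to it at 52. The median locus scored higher than 51.1% of its windows, where the corresponding value for windows themselves, which include many tied scores, was 44.2%.

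The upper part of the distribution differed from the windows. A score of at least 5, the cutoff used for calling regions, was found at 3 loci, or 0.824%, beside 0.246% of windows. A score of at least 3 was found at 39 loci, or 10.7%, beside 4.49% of windows. Of all loci, 36 (9.89%) were in the top 5% of windows of their chromosome, a rank that 4.24% of windows themselves reached because of ties. The top 1% held 10 loci (2.75%), beside 0.882% of windows. No locus reached a score of 10, which 0.00378% of windows did. The adjusted p of 0.05 was reached by 0.11% of windows and by 0 loci. At such low shares, neither count of 0 sets tRNA loci apart from windows. Without the flanks, 19 of 403 genes (4.71%) were in the top 5%, beside 3.54% of windows of the same length. These shares carry no test, since neighbouring loci and windows share reads and the track holds no replicates.

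**Figure D1:**
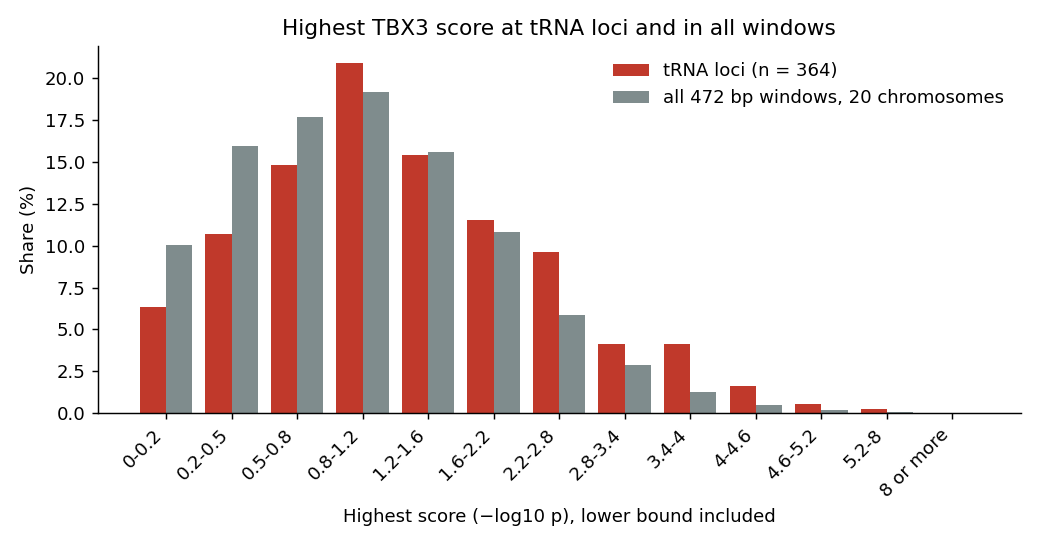
Share of tRNA loci (n = 364, red) and of all 472 bp windows on the 20 chromosomes (grey) by their highest score, in −log10 p. Both distributions centre near 1, and tRNA loci take a larger share than windows in every bin from 1.6 to 8. No locus falls in the last bin, which holds 0.0103% of windows.

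A called region was a run at or above 5, bridged over gaps of at most 30 bp and no shorter than 200 bp. Of the 125 regions called on these chromosomes, none overlapped a tRNA locus, and 0.00347% of windows overlapped one. At so low a share, a set of this many loci would seldom overlap a called region. The absence of overlap thus does not set tRNA loci apart from windows. The called region nearest to any tRNA locus lay 4961 bp from n-TAagc8, an alanine gene whose own highest score was 0.357. At the loci that reached 5, the runs were shorter than the minimum length.

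The mean score over the locus, which counts its whole width, was also shifted. Its median was 0.369, with a range from 0.0309 to 2.26, beside a window median of 0.300. By this measure 49 loci (13.5%) were in the top 5% of windows, beside 5% of windows, and the median locus ranked above 60.4% of its windows. Without the flanks, 23 of 403 genes (5.71%) were in the top 5% by mean score, close to the 5% of windows of the same length. The inferred levels show both sides of this score. The mean pileup had a median of 1.83 reads in tRNA loci and 1.70 in windows, while the mean expected level had a median of 2.51 and 2.65 reads. The ratio of pileup to expected level was 0.698 in the median locus and 0.600 in the median window. The median locus ranked above 56.1% of windows in pileup but above only 35.1% of them in expected level. The expected level stayed at the genome-wide value throughout 80 loci. It exceeded 2 times that value somewhere in 92 loci (25.3%), beside 34.5% of windows. At 12 loci, holding 13 genes, no ChIP read was inferred at any base. These were 3.23% of the genes, beside 6.84% of all 472 bp windows, which include assembly gaps. The share was 3.82% for small nuclear RNA genes, 2.93% for small nucleolar RNA genes and 3.42% for microRNA genes. It was 6.90% for 58 genes of 5S rRNA, 6.28% for ends of protein-coding genes and 0% for 10 other RNA polymerase III genes.

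The locus with the highest score was n-TEctc5, a glutamate gene at chr1:171064164-171064235. Its score of 5.38 came from 15 ChIP reads against an expected level of 3.95, and 0.113% of chromosome 1 windows scored as high. The score has an adjusted p of 0.0583. The base with this score lay 5 bp outside the gene.

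Next came n-TLtag3, a leucine gene at chr11:69124241-69124322 that shared its locus with the glutamine gene n-TQctg6. The locus reached 5.01 from 11 reads against 2.43, with an adjusted p of 0.0687, and 0.433% of its windows scored as high. The high score belonged to n-TLtag3, since n-TQctg6 with its own flanks reached 0.999. The tyrosine gene n-TYgta6 at chr13:23428738-23428826 had the same score of 5.01, also from 11 reads against 2.43, and 0.256% of its windows scored as high. The highest score was 179 bp outside n-TLtag3 and 151 bp outside n-TYgta6.

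A further 6 loci shared a score of 4.31, from 10 reads against 2.43, with an adjusted p of 0.122. They were those of the methionine genes n-TMcat7 and n-TMcat6 on chromosome 13, the glycine gene n-TGtcc2 on chromosome 1, the proline gene n-TPtgg7 on chromosome 3, and the arginine gene n-TRtct4 and the threonine gene n-TTagt5 on chromosome 11. In 3 of these loci a merged neighbour did not share the score. With their own flanks, the glycine gene n-TGgcc7 beside n-TMcat7 reached 0.999, the serine gene n-TStga1 beside n-TMcat6 reached 0.641, and the serine gene n-TScga3 beside n-TTagt5 reached 0.357. Of the 3 loci with a single gene here, n-TPtgg7 had its highest score inside the gene, and n-TRtct4 and n-TGtcc2 had it 149 and 200 bp outside. At n-TGtcc2 this base is the edge of the locus, and scores beyond the edge were not counted. The share of windows that scored as high ran from 0.306% at n-TPtgg7 to 1.35% at the locus of n-TMcat6. The last of the top 10 was the glycine gene n-TGgcc13 on chromosome 1, with a score of 3.87 from 16 reads against 5.86. Its pileup was the highest of these 10, and its score was the lowest, against the highest expected level of the 10. The highest mean score belonged to another gene, the asparagine gene n-TNgtt11 at chr3:96451425-96451498. Its mean score was 2.26, from a mean pileup of 6.62 reads against 2.43, although its highest score was 3.65.

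Genes for different amino acids overlapped widely. The median of the highest score per gene, taken with 200 bp flanks and without merging, ran from 0.801 for the 16 glutamine genes to 1.66 for the 16 aspartate genes. Glutamine genes ranged from 0.0398 to 3.65 and aspartate genes also from 0.0398 to 3.65. The 57 cysteine genes had a median of 0.999, and the 33 alanine genes had a median of 1.36. The number of genes with a score of at least 3 was 5 of 28 for glycine, 5 of 20 for glutamate, 4 of 17 for threonine, 3 of 16 for aspartate, 3 of 16 for methionine and 3 of 11 for histidine, the 6 amino acids with the highest shares, beside 9.93% of all tRNA genes and 4.15% of all 472 bp windows. Among them, the glycine genes n-TGtcc2, n-TGgcc12, n-TGtcc5 and n-TGgcc13 and the glutamate genes n-TEctc5 and n-TEctc8 lie in 1 cluster on chromosome 1, and all of these but n-TGtcc2 had a mean expected level of at least 5.56 reads. Isoleucine, lysine and serine had none among their 16, 26 and 22 genes. The ranges of all 20 amino acids overlapped.

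The highest gene of each amino acid gives the upper edge of these ranges. Glutamate (n-TEctc5, 5.38), leucine (n-TLtag3, 5.01) and tyrosine (n-TYgta6, 5.01) reached the cutoff. Arginine (n-TRtct4), glycine (n-TGtcc2), methionine (n-TMcat7 and n-TMcat6), proline (n-TPtgg7) and threonine (n-TTagt5) reached 4.31. Cysteine reached 3.72 at n-TCgca30. A score of 3.65 was the highest for alanine (n-TAtgc3), asparagine (n-TNgtt11 and n-TNgtt6), aspartate (n-TDgtc11), glutamine (n-TQctg7), tryptophan (n-TWcca5) and valine (n-TVaac7). Histidine (n-THgtg2, n-THgtg3 and n-THgtg10) and phenylalanine (n-TFgaa4) reached 3.02. The lowest maxima were those of lysine (n-TKctt9, 2.44), serine (n-TSaga1, n-TSaga5, n-TSgct5, n-TSgct7 and n-TSgct8, each 2.44) and isoleucine (n-TIaat7, 2.13).

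Genes with the same anticodon also ranged widely. The 12 glutamate genes with the anticodon CTC had a median of 1.73 and ran from 0.357 to 5.38. The other 8 glutamate genes, with the anticodon TTC, had a median of 1.21 and ran from 0.641 to 3.02. Among proline genes, the 7 with the anticodon TGG had a median of 2.44, the 6 with AGG a median of 0.820 and the 3 with CGG a median of 0.641. The proline ranges overlapped, from 0.641 to 4.31 for TGG, from 0.0398 to 1.90 for AGG and from 0.641 to 1.90 for CGG. These anticodons were picked as examples after their values were seen.

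**Figure D2:**
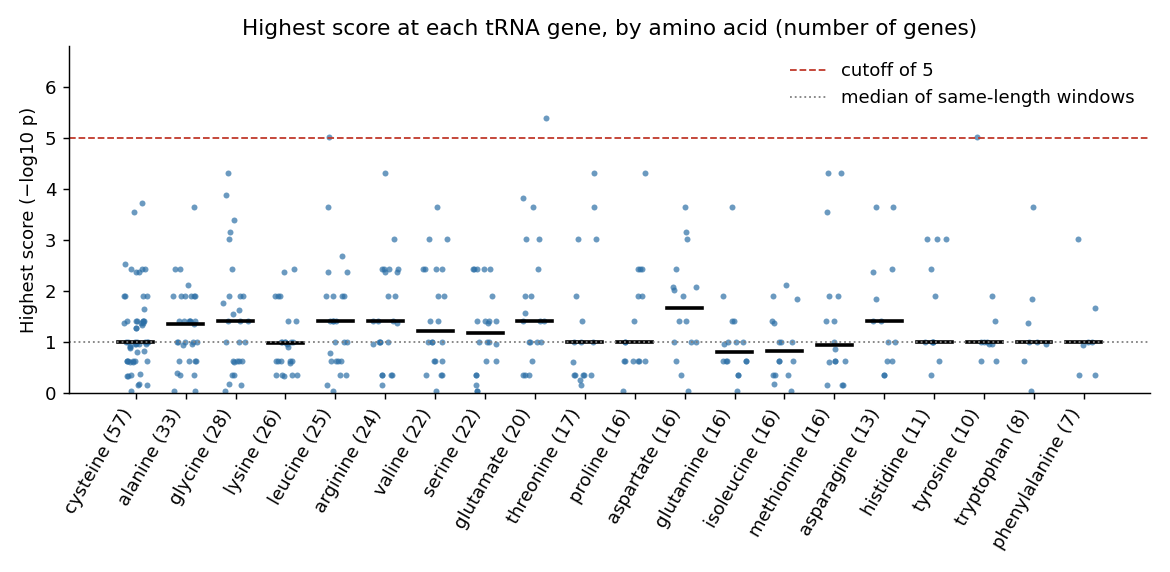
Highest score (−log10 p) of each of 403 tRNA genes with 200 bp flanks, by amino acid, with the number of genes in parentheses; points are genes and black bars are medians. The dotted line marks the window median of 0.999 and the dashed line the cutoff of 5, which only n-TEctc5, n-TLtag3 and n-TYgta6 pass.

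Clusters were defined as runs of at least 5 tRNA genes with neighbours at most 100 kb apart. There were 13, holding 260 genes, and 143 genes lay outside them. The median highest score was 0.999 in both sets. The mean score had a median of 0.405 in clusters and 0.292 outside, with a median pileup of 2.0 and 1.56 reads against expected levels of 2.49 and 2.49. Of the genes in clusters, 28 (10.8%) were in the top 5% of windows and 3 reached a score of 5. Of the genes outside, 10 (6.99%) were in the top 5% and 0 reached 5. Among all 472 bp windows, 4.06% were in the top 5% and 0.232% reached 5. Genes in a cluster share neighbours and repeated sequence, so they are not independent of each other.

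The cluster with most genes lay at chr6:48133937-48363603 and held 48 genes, all for cysteine. Its median highest score was 0.999, the median pileup 1.82 reads and the median expected level 2.84. The ratio of pileup to expected level was 0.587, beside 0.600 for windows of that chromosome, and 2 of the 48 genes were in the top 5%. The cluster next in size, at chr13:23270421-23530419, held 45 genes for 15 amino acids. Its median highest score was 1.42. Averaged over each widened gene, the median pileup was 2.07 reads and the median expected level 2.45. Of its 45 genes, 3 were in the top 5%, among them n-TYgta6. Leaving out each of the 13 clusters in turn gave shares in the top 5% from 8.20%, without the chromosome 1 cluster described next, to 10.1%, without the chromosome 6 cluster. The share was 9.43% for all 403 genes and 4.06% for all 472 bp windows.

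The cluster at chr1:171033942-171111515, with 25 genes, was singled out after its values were seen, as the one with the highest median pileup. Its genes had a median pileup of 6.07 reads, beside 1.70 in windows of chromosome 1, and a median expected level of 5.46, beside 2.64. The highest score, which weighs one level against the other, had a median of 1.90, beside 0.999 in windows of chromosome 1. A score of at least 3 was found at 7 of the 25 genes (28%), beside 4.15% of all 472 bp windows. The same 7 genes were in the top 5%, beside 4.06% of those windows.

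Within this cluster the raised expected levels covered an unbroken run of 15 genes over 17.8 kb, from n-TEctc5 to n-TGgcc14. These genes lay in 3 units of 5 genes, each 2.54 to 2.58 kb long and each in the same order, glutamate CTC, glycine TCC, aspartate GTC, leucine CAG and glycine GCC. The mean expected level of the 15 genes ran from 5.15 to 10.0 reads and their mean pileup from 4.43 to 11.6 reads. The other 10 genes of the cluster had expected levels from 2.43 to 3.14 and pileups from 0 to 4.09, and the split itself was made after seeing the values, by an expected level above 2 times the genome-wide one. The ratio of pileup to expected level had a median of 1.24 in the 15 genes and 0.572 in the other 10, beside 0.600 in windows of chromosome 1. It ran from 0.740 to 1.89 in the 15 genes and from 0 to 1.53 in the other 10, and these ranges overlapped. The units differed in score although they carried the same genes. The unit that starts with n-TEctc5 had 2 genes with a score of at least 3, the middle unit had 3 and the unit that ends with n-TGgcc14 had 0, with highest scores from 1.54 to 2.09. Pileup and expected level were thus both high in the same 15 genes, and the part of the raised Input level in their scores was not tested.

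**Figure D3:**
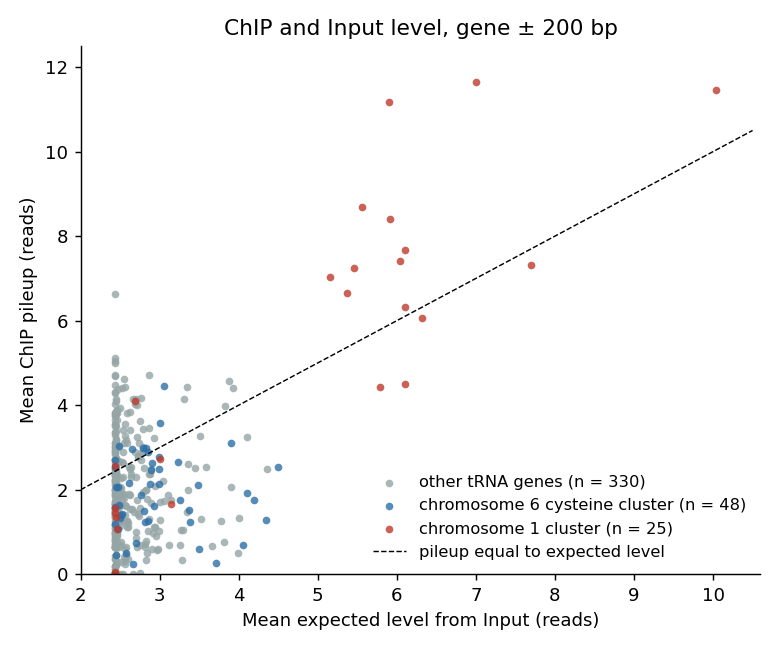
Mean ChIP pileup against mean expected level from Input, both in inferred reads, for each of 403 tRNA genes with 200 bp flanks. Red points are the 25 genes of the chromosome 1 cluster, 15 of which lie at expected levels of 5.15 to 10.0, blue points are the 48 cysteine genes on chromosome 6, and the dashed line marks equal levels.

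A smaller cluster on chromosome 11, at chr11:48818542-48857055, had 4 of its 8 genes in the top 5%, the highest share of the 13 clusters, with a median highest score of 2.01 and no gene at 5. The 4 genes rest on 3 peaks, since n-TVaac7 and n-TLaag6 have overlapping flanks and share a peak of 3.65, and the 8 genes form 6 loci. It too was picked after its values were seen. In the chromosome 11 cluster that holds n-TLtag3 and n-TRtct4, at chr11:69037003-69125248, 3 of 18 genes were in the top 5%. In the clusters on chromosomes 5, 14, 17, 19 and X, which hold 5, 7, 7, 8 and 8 genes, none were. Of all 472 bp windows, 4.06% were in the top 5%. At that share, a count of 0 in clusters this small does not set them apart from windows.

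The gene itself takes up 15.3% of its widened window in the median. The highest score was reached inside the gene for 83 of the 403 genes (20.6%) and only in the flanks for the other 320. Of the 40 genes with a score of at least 3, it was reached inside the gene for 5. The gene body alone had a median highest score of 0.357. No test of these counts against the width of the gene was made. Scored without flanks and against windows of the gene's own length, 19 of 403 genes (4.71%) were in the top 5%, beside 3.54% of windows, and 1 gene, n-TEctc5, reached 5, with 5.37 in the gene itself.

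Levels around the genes were compared between the 100 bp on each side of the gene centre and the stretch from 1000 to 2000 bp away. The mean pileup was 2.02 reads near the centre and 2.11 farther out. The expected level was 2.78 reads near the centre and 2.97 farther out. The expected level was lower near the centre at 331 of 403 genes (82.1%), beside 68.9% of 511769 centres laid on a grid along the chromosomes. Pileup was lower near the centre at 226 genes (56.1%), beside 54.8% of the grid, and the score was lower there at 243 genes (60.3%), beside 61.3%. The mean score was 0.429 near the centre and 0.413 farther out, while the median over genes was 0.290 and 0.374, so mean and median differed in direction. On the grid the mean score was 0.353 at both distances. Near the grid centres the mean pileup, 1.77 reads, was likewise below the mean expected level, 2.87. In bins of 50 bp the mean score of the 403 genes was highest, at 0.519, about 275 bp from the centre on the lower-coordinate side, and it was 0.406 in the bin just below the centre. The gene table gives no strand, so this side is upstream for some genes and downstream for others. No test of these profiles was made.

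**Figure D4:**
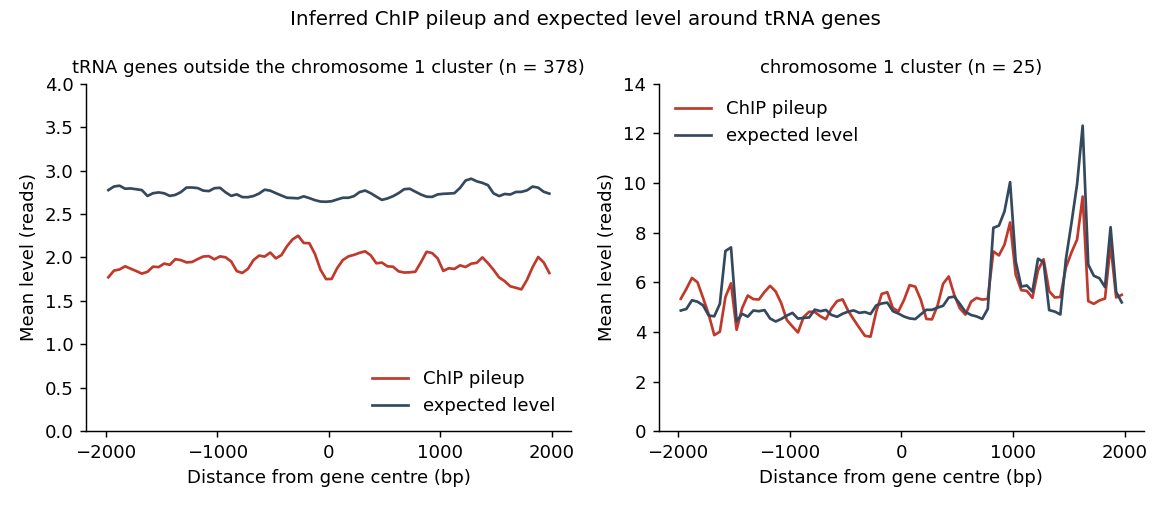
Mean inferred ChIP pileup (red) and expected level (dark blue), in reads, by distance from the gene centre in bp along the chromosome, for the 378 tRNA genes outside the chromosome 1 cluster and the 25 genes in it. Outside the cluster the pileup stays below the expected level over the whole window and is highest about 275 bp from the centre on the lower-coordinate side; in the cluster both lie near 5 reads at the centre and the vertical scale differs.

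TBX3 scores were also read at the ends of protein-coding genes, and 48 of the tRNA loci lay within 1 kb of such an end. Of these, 5 (10.4%) were in the top 5%, beside 4.63% of windows at the same distance. Of the 316 loci farther away, 31 (9.81%) were in the top 5%, beside 4.04% of windows. A score of at least 5 was found at 1 of the 48 loci and 2 of the 316, beside 0.246% of all same-length windows. No test of the difference between both sets of loci was made.

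Other short genes were read in the same way, each in a window of 472 bp around its centre, or around each end for protein-coding genes. Here 38 of 403 tRNA genes (9.43%) were in the top 5%, beside 4.06% of all windows. RNA polymerase III transcribes the 10 other genes on a fixed list, and none of them were in the top 5% (0%). This list holds Rn7sk, a regulator of transcription elongation, Rmrp and Rpph1, the RNAs of RNase MRP and RNase P, Rny1 and Rny3, the Y RNAs, Rn7s1 and Rn7s2, RNAs of the signal recognition particle, the vault RNA gene Vaultrc5, the neuronal RNA gene Bc1 and the U6 gene Rnu6. Their median score was 0.357, and the highest, at Rnu6, was 1.16. With 10 genes, a share of the size seen for tRNA genes would be about 1 gene.

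Of 58 genes for 5S rRNA, another RNA polymerase III product and a part of the large ribosomal subunit, 3.45% were in the top 5%. The share was 3.82% of 994 small nuclear RNA genes, 5.34% of 1330 small nucleolar RNA genes and 5.13% of 1228 microRNA genes. At 43046 ends of protein-coding genes it was 5.35%. A score of at least 3 was found for 9.93% of tRNA genes and 5.48% of protein-coding gene ends, beside 4.15% of all windows. A score of at least 5 was found for 0.744% of tRNA genes and 0.920% of protein-coding gene ends, beside 0.232% of all windows. Among these classes the share at 3 was highest for tRNA genes, while at 5 that of protein-coding gene ends was higher. No test of these differences was made, since the genes of a class share reads and clusters.

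**Figure D5:**
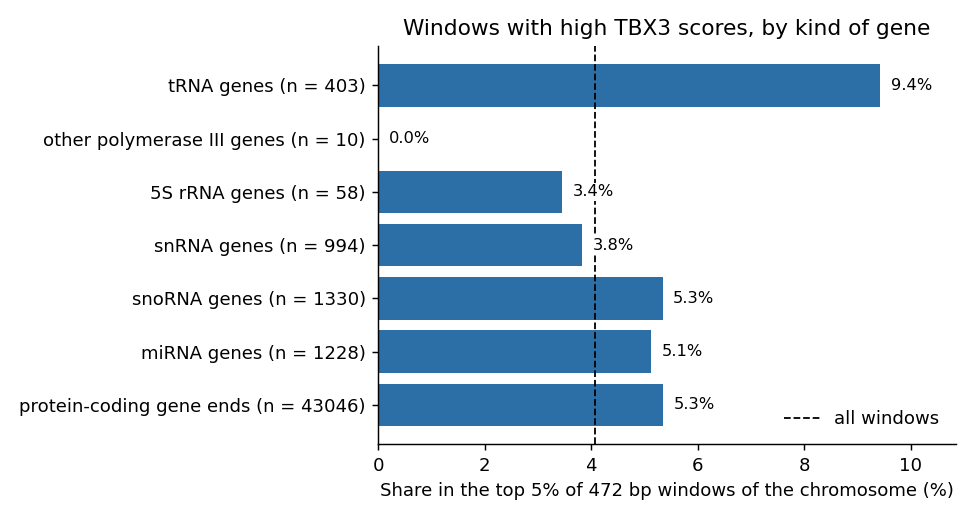
Share (%) of genes in the top 5% of 472 bp windows of their chromosome by highest score, for tRNA genes and 6 other classes with the number of genes or gene ends in parentheses. The tRNA genes reach 9.43%, the other classes lie between 0% and 5.35%, and the dashed line marks 4.06%, the share of all windows.

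The protein-coding genes that make and use tRNAs were read at their promoters, as the highest score within 1 kb of either gene end. Among all 21523 protein-coding genes, 3.67% had a promoter score of at least 5, 29.5% had a score of at least 3, and the median was 2.44. Of the 64 genes on the 4 lists, 3 (4.69%) reached 5, 28 (43.8%) reached 3, and the median was also 2.44.

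Of 13 subunits of RNA polymerase III, 1 reached a promoter score of 5 and 6 reached 3, with a median of 2.94. The gene was Polr3k, with 8.13 from 15 reads against 2.43. Of 12 genes for TFIIIB, TFIIIC and their regulators, 1 reached 5 and 4 reached 3, with a median of 2.40. This gene was Gtf3c6, a subunit of TFIIIC, with 5.75 from 12 reads against 2.43. Of 19 genes for tRNA processing and export, 1 reached 5 and 9 reached 3, with a median of 2.94. It was Pop7, a subunit of RNase P and RNase MRP, with 5.01. Of the 20 cytoplasmic aminoacyl-tRNA synthetases, which load each tRNA with its amino acid, none reached 5 and 9 reached 3, with a median of 2.60 and a highest score of 3.65 at Nars, Lars and Rars.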

How the data were processed

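ChIP-Seq of HA-tagged TBX3 in primary mouse hepatocytes comprised 2 ChIP libraries and 2 of Input. After mapping with Bowtie 2 and sorting with Samtools, the authors made the deposited track of −log10 p-values with MACS2 on mm10. The submitters' processing notes name the same tools and build. Versions, treatment of duplicates, scaling and the libraries that entered the track were not given in the sources used here. The deposited −log10 p-values hold 110667813 intervals over 2727620324 bases, with 0 other columns of per-sample values.

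Genes came from RefSeq GRCm38.p6, whose table gives no strand. Pileup and expected level were inferred as whole reads, extended to 150 bp, and the Input level that give each score under a Poisson distribution, where the expected level is the highest of the genome-wide level and the Input level over 150, 1000 and 10000 bp. Of bases scoring 5 or more, 98.5% had such a pair, and the inferred total was 30328526 ChIP reads. The pair chosen keeps changes along the chromosome few. The inference of both levels and the ranking among windows were tested on simulated reads that held no repeated sequence. The other steps were not tested in this way. Windows include constant stretches such as assembly gaps.

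The members and lists were chosen with earlier results of these data known. The genes named are the 10 loci with the highest score, every locus with a score of at least 5, the highest gene of each amino acid, the 2 clusters with most genes, the pathway genes with a promoter score of at least 5 or the highest of their list, and E2f7. The chromosome 1 cluster, n-TNgtt11, n-TAagc8, the anticodons described and the chromosome 11 clusters were named after their values were seen. No test over samples was possible. The tools were numba 0.67.0, matplotlib 3.10.9, scipy 1.17.1 and pandas 2.3.3 with numpy 2.4.6, run in Python 3.11.15.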

Additional observations from a re-analysis of the deposited data

How the results depend on the processing

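No paired analysis was possible because the track gives 1 value per base and none per library, and no library could be left out for the same reason. The count of 3 loci with a score of at least 5 became 39 when 3 was the cutoff, beside 4.49% of windows. It was 0 when 10 was, beside 0.00378%, and 0 at an adjusted p of 0.05, beside 0.11%. It was also 0 when pileup and expected level were halved, as holds if both mates of a pair were counted. The highest score was then 3.01. No window share was taken at that setting, so its 0 cannot tell tRNA loci from windows. The count became 1 of 403 without flanks and 7 of 301 with flanks of 500 bp, beside 0.0519% and 0.559% of windows. No locus overlapped a called region at any cutoff, gap or length tried. The share of windows with such an overlap was taken only at the main setting, where it was 0.00347%. At so low a share, a count of 0 loci cannot tell tRNA loci from windows. For the other settings the count has no window share beside it. The median highest score became 0.357 without flanks and 1.90 with 500 bp, beside window medians of 0.357 and 1.42. The median share of windows below the locus became 48.2% without flanks and 57.5% with 500 bp. Because of ties, the corresponding values for windows themselves were 44.4% and 39.6%. The share became 49.8% with constant stretches left out and 48.1% against windows of all 20 chromosomes, where the value for windows themselves was not taken. The 36 loci in the top 5% became 19 of 403 without flanks and 10 in the top 1%. They stayed at 36 with constant stretches left out and were 36 of 301 with 500 bp and 29 of 341 (8.50%) without the chromosome 1 cluster. The median mean score became 0.251 without flanks and 0.408 with 500 bp, beside window medians of 0.202 and 0.336. It was 0.342 without that cluster. The 49 loci in the top 5% by mean score became 23 of 403 (5.71%) without flanks and 38 of 301 (12.6%) with 500 bp, each beside 5% of windows. They were 43 of 341 (12.6%) without the cluster. The median expected level of 2.43 at the highest score became 3.34 when the highest level in the locus was taken. The causes of these changes were not tested.

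Leaving out the chromosome 1 cluster and keeping the 5 genes without values were chosen after seeing the data. The latter left the count at 3 and the median at 0.999. A search for T-box motifs was not run, since no sequence was used here. At pileups near 10 reads a weak site and counting error cannot be told apart from a single track.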

Other observations

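The 22 mitochondrial tRNA genes were outside the rule, since they are not on a nuclear chromosome. Their highest scores had a median of 0.207 and ran from 2e-05 to 2.40, and the latter was also the highest score anywhere on the mitochondrial genome.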
